A study of Homo sapiens with 2 samples.

Results

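The neighborhood of SLC22A3 on the long arm of human chromosome 6 was described in CAMA-1, a luminal breast cancer cell line. It was taken as the stretch from the start of IGF2R to the end of MAP3K4, chr6:159969082-161117385 in hg38, which holds the 6 genes chosen as members: IGF2R, SLC22A2, SLC22A3, LPA, PLG and MAP3K4. These are 6 of 20033 protein-coding genes and of 62663 genes of any kind in the annotation (GENCODE release 44), and the rule for the members uses their position and no measured value, although earlier results of these data were known when it was set. Open chromatin was profiled by ATAC-seq, an assay in which a Tn5 enzyme cuts and tags the DNA that nucleosomes leave bare before it is sequenced. The samples were 2 replicates of 50000 cells, labelled biological, of epithelial cells from the mammary gland grown as an adherent culture without a treatment. There was no second condition, so that nothing below compares groups of samples. Of the members, SLC22A3 has a further role in the experiment, since the study used an SLC22A3 amplicon as one of its closed regions when the libraries were checked by qPCR. Peaks were called in each replicate, and the neighborhood held 54 of the 245736 peaks of replicate 1 and 57 of the 259745 peaks of replicate 2.

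Genes whose transcription start site (TSS) is in use usually carry an open, nucleosome-depleted stretch there, while genes reserved for another tissue often do not. The members fall on both sides of this divide in what they are known for. IGF2R, the cation-independent mannose 6-phosphate receptor, carries newly made enzymes to the lysosome and clears the growth factor IGF2, and MAP3K4 is a kinase that relays stress signals to p38 and JNK; both are used by many tissues. SLC22A2 and SLC22A3 encode the organic cation transporters OCT2, known from the kidney, and OCT3, which is found more widely. PLG encodes plasminogen, the precursor of the clot-dissolving protease plasmin, and LPA encodes apolipoprotein(a), a relative of plasminogen, and both are made mainly by the liver. AIRN, a noncoding RNA that starts inside IGF2R and runs against it, is known in the mouse for silencing Igf2r and its neighbors on the paternal chromosome.

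The sequence that served as the closed control is shown first, because every distance to it depends on where it lies. Both primers matched hg38 at 1 place each, on chr6:160445660-160445808, in an intron of SLC22A3 that follows 9 of its exons and precedes the last 2. The amplicon of 149 bp is given on the + strand with the primer sites in capitals.
SLC22A3 amplicon: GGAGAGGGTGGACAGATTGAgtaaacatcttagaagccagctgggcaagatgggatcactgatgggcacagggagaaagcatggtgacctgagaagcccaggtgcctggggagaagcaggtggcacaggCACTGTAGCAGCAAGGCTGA

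The bases before the TSSs are shown because they differ in their content of the dinucleotide CG, which is dense at many widely used promoters. RefSeq promoters (GRCh38.p14) were matched for 4 of the 6 members, and SLC22A3 and LPA were not among them. Each window held the 250 bases before the RefSeq TSS on the strand of the gene, and CG is in capitals. For MAP3K4, the last 42 bases were left out of the print because they lie in an annotated untranslated exon, and the counts of CG below still cover all 250.
IGF2R, chr6:159968832-159969081, + strand: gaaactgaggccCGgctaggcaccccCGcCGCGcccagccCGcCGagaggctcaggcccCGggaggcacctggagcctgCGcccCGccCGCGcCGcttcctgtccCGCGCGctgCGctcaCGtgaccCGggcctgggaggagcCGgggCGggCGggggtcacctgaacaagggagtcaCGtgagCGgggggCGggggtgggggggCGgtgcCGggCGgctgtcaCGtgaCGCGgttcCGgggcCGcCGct
SLC22A2, chr6:160258822-160259071, − strand: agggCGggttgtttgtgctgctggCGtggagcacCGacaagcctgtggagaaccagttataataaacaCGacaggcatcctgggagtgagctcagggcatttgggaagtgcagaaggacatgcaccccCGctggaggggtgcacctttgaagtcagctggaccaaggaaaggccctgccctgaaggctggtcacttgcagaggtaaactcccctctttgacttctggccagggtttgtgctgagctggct
PLG, chr6:160701943-160702192, + strand: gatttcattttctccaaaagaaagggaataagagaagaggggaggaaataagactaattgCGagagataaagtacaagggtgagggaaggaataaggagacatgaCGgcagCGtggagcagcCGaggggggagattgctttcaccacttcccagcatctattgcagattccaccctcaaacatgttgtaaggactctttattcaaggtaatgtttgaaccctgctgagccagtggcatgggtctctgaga
MAP3K4, chr6:160991519-160991726, + strand: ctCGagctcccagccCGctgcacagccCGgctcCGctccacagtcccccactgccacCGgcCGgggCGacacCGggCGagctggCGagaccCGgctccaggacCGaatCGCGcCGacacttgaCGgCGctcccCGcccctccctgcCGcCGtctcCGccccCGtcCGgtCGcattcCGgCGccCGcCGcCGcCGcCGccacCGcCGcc

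IGF2R held 33 CG dinucleotides in its 250 bases and MAP3K4 held 38, whereas SLC22A2 held 5 and PLG held 4. Over the 27305 RefSeq promoters the median was 11, with quartiles of 3 and 23. Peaks of both replicates covered all 250 bases of the IGF2R and MAP3K4 windows and none of the bases of the SLC22A2 and PLG windows. The most accessible region of the neighborhood lay far from these promoters, between PLG and MAP3K4. Its middle 200 bases, chr6:160810281-160810480 on the + strand of hg38, are shown for their match to TGANTCA, the site bound by AP-1 factors such as FOS and JUN, in capitals.
Highest region: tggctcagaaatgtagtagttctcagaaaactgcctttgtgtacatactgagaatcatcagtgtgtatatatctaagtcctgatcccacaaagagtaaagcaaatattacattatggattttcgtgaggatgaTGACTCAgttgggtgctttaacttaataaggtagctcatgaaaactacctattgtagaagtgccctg

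The peak lists hold no read totals, and library depth was not used here. The lists do give, for each peak, a fold enrichment that comes in whole steps, and these steps return the height of a peak, which is the number of reads stacked at its highest base, over a single background that was 3.35 stacked reads for replicate 1 and 3.52 for replicate 2. The lowest peak had a height of 11 in both lists, so sites below this height are absent from the lists and not shown to be closed. A peak was assigned to a TSS when it lay within 1 kb of any annotated TSS of a gene. By this measure all 7 luminal epithelial markers (ESR1, GATA3, FOXA1, KRT8, KRT18, KRT19 and EPCAM) had TSS peaks in both replicates, with heights from 135 to 662. So did 79.3% of all protein-coding genes, so this count alone does not establish the label of the cells. Of 6 markers of other cell types, PTPRC, CD3E, PECAM1, ALB and AHSG had none, and COL1A2 had one with heights of 75 and 85. All 6 were poor in CG at their TSS by the measure given below, as were 4 of the luminal markers. Among such genes, 47.5% had a peak at the most 5′ TSS in both replicates. ALB and AHSG also belong to the 17 liver plasma proteins examined below, of which 8 had a TSS peak in both replicates.

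Of the 6 members, IGF2R and MAP3K4 had a TSS peak in both replicates, PLG had one in replicate 1 only, and SLC22A2, SLC22A3 and LPA had none in either. Against these 2 of 6, 79.3% of all protein-coding genes had a TSS peak in both replicates. The open pair, the receptor and the kinase, are the members that set the ends of the neighborhood by its definition. The 4 members between them, the transporters and the liver proteins, had no TSS peak that both replicates shared.

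The IGF2R TSS peak had a height of 74 stacked reads in replicate 1 (95% exact Poisson interval, 58.1 to 92.9) and 79 in replicate 2 (62.6 to 98.5). These intervals and those below cover at most counting error, with each stacked read taken as independent. Reads copied by PCR are not independent molecules, so the intervals may be too narrow. The MAP3K4 TSS peak had heights of 100 (81.4 to 122) and 115 (94.9 to 138). MAP3K4 was the higher of the 2 in each replicate, with intervals that overlapped those of IGF2R in each. Both stood low among open promoters, because the highest TSS peak of a protein-coding gene had a median height of 221 in replicate 1 and 237 in replicate 2. IGF2R ranked at the 15.99th and 16.5th percentiles of such genes and MAP3K4 at the 21.5th and 23.4th. The MAP3K4 peak also covered the TSS of the antisense RNA MAP3K4-AS1, so that its height cannot be divided between the genes.

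Most of the alternative starts of the open members had no peak. For IGF2R, 3 of 9 annotated TSSs had a peak in both replicates: the start of the full gene and a pair of internal starts. The internal starts had regions with heights of 36 and 30 at chr6:160072413-160072648 and of 34 and 38 at chr6:160088486-160088706. For MAP3K4, 4 of 13 TSSs had a peak in both replicates, all under the promoter peak, and 1 internal TSS had a peak of height 14 in replicate 2 only. PLG had 14 annotated TSSs, of which 2 internal ones lay near a replicate 1 peak over a coding exon, chr6:160731020-160731209, with a height of 25 (16.2 to 36.9). No PLG TSS had a peak in replicate 2, where the closest peak was at a distance of 1289 bp.

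SLC22A3 had a promoter of the CpG-rich kind without a peak. Within 500 bp of its TSS the GC content was 75.8% and CG was present at 0.918 of the number that its C and G content would give, compared with 74.0% and 0.883 for IGF2R and 71.3% and 0.976 for MAP3K4. Among protein-coding genes that were CpG-rich by the same measure (GC of at least 50% and CG ratio of at least 0.6), 89.3% had a peak at their most 5′ TSS in both replicates, and this held for 2 of the 3 CpG-rich members, SLC22A3 being the other. The nearest peak to the SLC22A3 TSS was 38.5 kb away in each replicate. SLC22A2, LPA and PLG were CpG-poor, with CG ratios of 0.401, 0.194 and 0.257. None of these 3 genes had a peak at its most 5′ TSS, whereas 47.5% of CpG-poor protein-coding genes did.

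**Figure D1:**
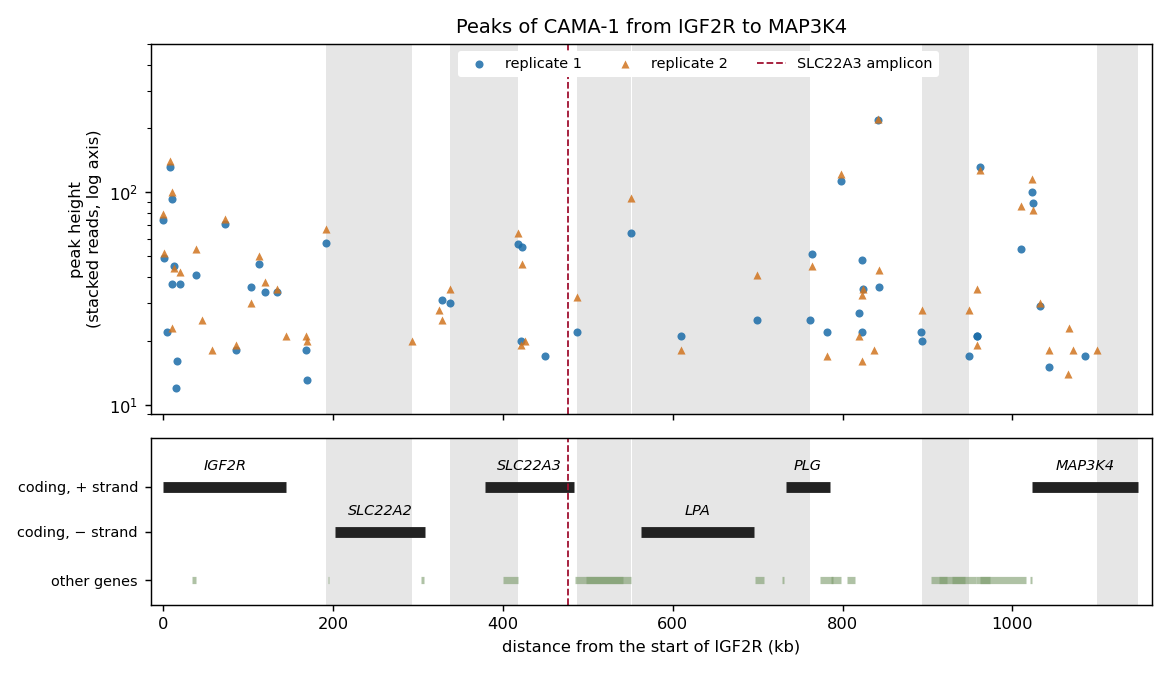
Peak height in stacked reads (log axis) against the distance from the start of IGF2R in kb, with circles for replicate 1 and triangles for replicate 2, over the bodies of the members and of noncoding genes. Gray bands are the 8 stretches of at least 50 kb without a peak of either replicate, which lie mostly between IGF2R and PLG, and the dashed line is the SLC22A3 amplicon.

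The promoters without a peak differed in how far the closest peak was. The most 5′ TSS of SLC22A3 had the farthest neighbor at 38.5 kb in both replicates, followed by PLG (28.8 kb and 30.9 kb), SLC22A2 (19.7 kb and 15.1 kb) and LPA (3.71 kb and 3.55 kb). The order of these 4 genes was the same in each replicate. The peak nearest to LPA, chr6:160667822-160668220, lay upstream of the gene in an intron of an unprocessed pseudogene, ENSG00000243831, and had heights of 25 and 41. For SLC22A2 the annotation places the most 5′ TSS at 160277638, upstream of the RefSeq one at 160258821. From the RefSeq TSS the closest peaks were at 38566 bp (replicate 1) and 3545 bp (replicate 2).

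The neighborhood as a whole was sparse in open regions. Peaks of the replicates that shared at least 1 bp were merged, which gave 63 regions, of which 45 were found in both replicates, 7 in replicate 1 only and 11 in replicate 2 only. The 45 regions over 1148.3 kb were 3.92 per 100 kb, compared with 6.80 on chromosome 6 and 7.33 in the genome. Peaks covered 1.51% of its bases in replicate 1 and 1.73% in replicate 2 (1.62% ± 0.1497, SD, n = 2), compared with means of 3.44% on chromosome 6 and 3.77% in the genome. The spread between replicates was smaller than these gaps, but it covers only the difference between the libraries. How stretches of this length vary across the genome was not computed, so the gaps describe a single neighborhood without a test.

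The replicates gave the same picture of the regions. In replicate 1, 87.0% of the peaks of the neighborhood overlapped a peak of replicate 2, and 80.7% did so in the other direction, compared with 90.2% and 84.7% of all peaks. Heights of the 45 shared regions ran from 13 through a median of 36 to 218 in replicate 1, and from 16 through 38 to 221 in replicate 2. The medians over all shared regions of the genome were 41 and 44. The regions seen once were low, with heights of 12 to 25 (replicate 1) and 14 to 28 (replicate 2). The height was greater in replicate 2 in 29 regions, lower in 15 and equal in 1, and the 95% intervals of the replicates overlapped in all 45. Across the 45 regions, which share their libraries, the Spearman correlation of the heights was 0.912, given as a description.

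**Figure D2:**
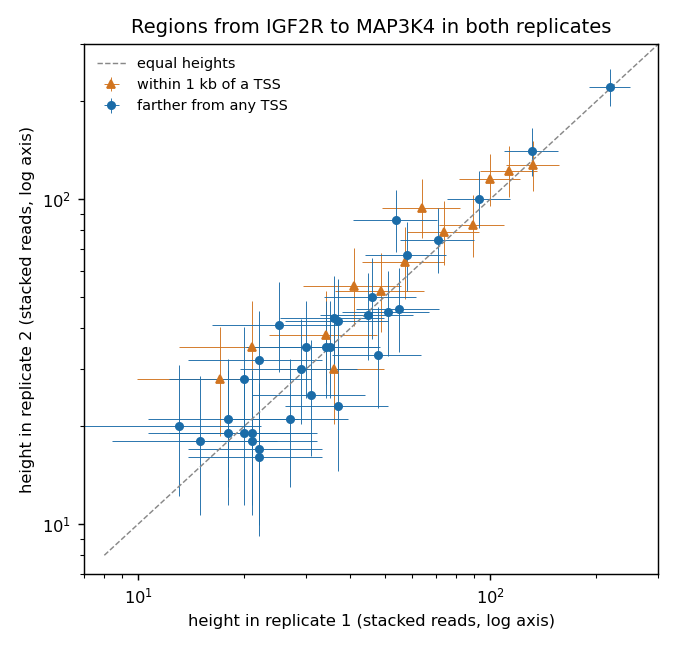
Height of the 45 shared regions in replicate 1 (x axis) and replicate 2 (y axis), in stacked reads on log axes, with 95% exact Poisson intervals; triangles lie within 1 kb of a TSS and circles farther away. The points follow the dashed line of equal heights, from 13 and 20 for the region with the lowest height in replicate 1 to 218 and 221 for the highest.

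By position, 13 of the 45 regions lay within 1 kb of a TSS of any gene, 21 in introns, 10 between genes and 1 in an exon. The 13 regions near a TSS had median heights of 57 and 64, with ranges of 17 to 132 and 28 to 127. The 32 others had medians of 32.5 and 34, with ranges of 13 to 218 and 16 to 221. The ranges overlapped almost entirely, and the highest region of all was one of those far from a TSS.

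The members differed in how densely they were open. The body of IGF2R held 17 peaks in each replicate, that of SLC22A2 held 0 and 1, SLC22A3 4 and 4, LPA 1 and 1, PLG 3 and 2, and MAP3K4 5 and 8. The IGF2R body held 14 regions found in both replicates, or 9.69 per 100 kb, which was the 59.9th percentile of the 6794 protein-coding genes of at least 50 kb. The median of those genes was 7.81 per 100 kb, with quartiles of 4.26 and 13.7, and the other 5 members lay below the lower quartile. PLG held 2 regions (3.85 per 100 kb), MAP3K4 held 4 (3.18), SLC22A3 held 3 (2.88) and LPA held 1 (0.753). SLC22A2 held none, as did 95 of the 6794 long genes (1.40%).

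**Figure D3:**
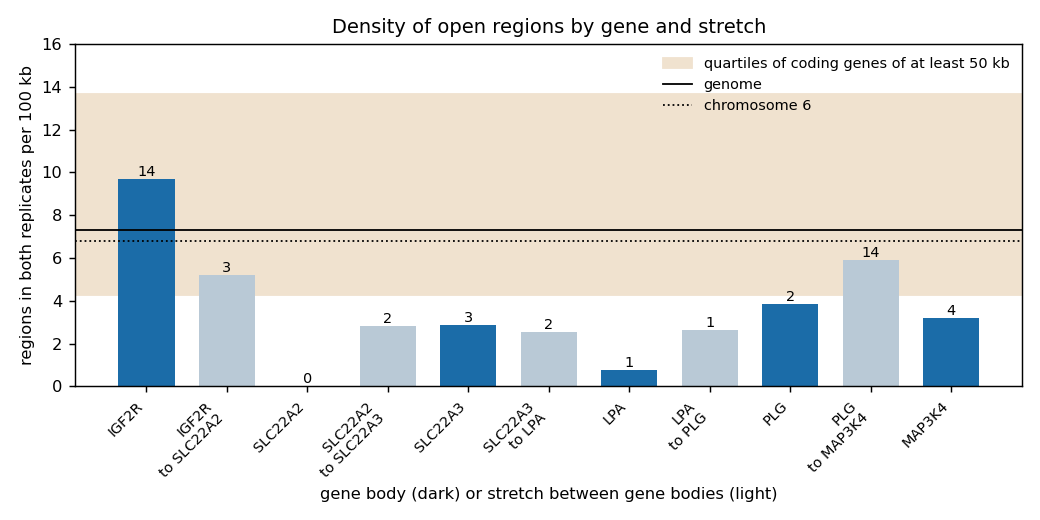
Regions found in both replicates per 100 kb in each member (dark bars) and in each stretch between members (light bars), with the number of regions above the bar. The lines give the genome and chromosome 6, the band the quartiles of the 6794 protein-coding genes of at least 50 kb, and IGF2R is the only bar above the lines.

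Inside IGF2R, 6 of the 14 shared regions had their middle in the first 20 kb of the gene, besides the promoter region, whose middle lay just before its start. The highest was in an intron at chr6:159977022-159977993, with heights of 131 and 140, above those of the promoter in both replicates. It was followed by chr6:159979237-159979534, with 93 and 100, which held an AP-1 match. Another intronic region, chr6:160041572-160041920, had heights of 71 and 75. The region at the start of AIRN, chr6:160007186-160007495, had heights of 41 and 54 and overlapped an exon of this RNA within an intron of IGF2R. The weakest shared region of the gene, chr6:160054072-160054297, had heights of 18 and 19.

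SLC22A2 had no region found in both replicates. Its body of 106.6 kb held no peak of replicate 1 and a single peak of replicate 2, chr6:160262366-160262526, with a height of 20. On its side toward IGF2R, the region chr6:160160451-160160753 had heights of 58 and 67. It marked the last shared region before the longest stretch without peaks.

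SLC22A3 had 3 shared regions, all in 1 part of its introns. The first, chr6:160386878-160387271, had heights of 57 and 64, covered the TSS of the noncoding RNA ENSG00000287656 and held matches to the AP-1 and AP-2 sites. The second had heights of 20 and 19. The third, chr6:160391369-160391657, had heights of 55 and 46 and held an AP-1 match. A peak of height 20 in replicate 2 and a peak of height 17 in replicate 1 were each seen once. The open sites of the gene thus lay 38.7 to 43.1 kb inside it, measured to the middle of the shared regions, with none at its own start.

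The SLC22A3 amplicon lay apart from all of these. It was 97.3 kb from the TSS of SLC22A3 and 6.77 kb from the end of the gene. The closest peak began 10054 bp from it by the list of replicate 1 and 10041 bp by that of replicate 2 (mean 10047.5 bp ± 9.19, SD, n = 2). This peak, in the region chr6:160455849-160456248, had heights of 22 and 32. The amplicon sat in a stretch of 37.2 kb without a peak, which was the 11th longest of the neighborhood and longer than 94.4% of the stretches of the genome. That percentile counts stretches and not bases. Stretches of at least 50 kb, longer than this one, were 3.50% of all stretches but held 29.9% of the known bases of the genome. The percentile therefore does not make the place of the amplicon unusual, and its distance to a peak is given without a comparison. The GC content of the amplicon was 56.4%, and none of the words of 100 bases across it had an exact copy elsewhere in the genome.

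LPA had the lowest density of the members after SLC22A2. Its only shared region, chr6:160578574-160578810, lay over a coding exon and had heights of 21 and 18. The gene is built from repeated kringle exons, and 26.0% of its words of 100 bases had an exact copy elsewhere, compared with 4.14% in the whole neighborhood, 0.388% in IGF2R and 1.18% in SLC22A2. Reads that lie wholly within such words may not be assigned to 1 place, and their part in the low density of LPA was not tested. The shared region of LPA itself had 31.9% of its words repeated. The noncoding RNA named LPAL2, which starts on the far side of LPA from PLG, had a TSS region, chr6:160519734-160520891, with heights of 64 and 94.

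PLG had 2 shared regions in its introns. The first, chr6:160733108-160733391, had heights of 51 and 45 and an AP-1 match. The second had heights of 22 and 17 and lay within both PLG and ENSG00000287558, a noncoding RNA that overlaps it. The TSS of that RNA, past the end of PLG, had a region, chr6:160766811-160767708, with heights of 113 and 122.

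The stretch between PLG and MAP3K4 held as many shared regions as IGF2R. In its 237.6 kb there were 14 regions, or 5.89 per 100 kb, including the promoter region of MAP3K4, which spans the border and is counted in the gene too. The highest, chr6:160810050-160810712, had heights of 218 and 221, higher than 92.1% of all peaks in replicate 1. Its middle was 71.2 kb from the closest coding TSS, an internal start of PLG at 160739168 that had no peak of its own. The most 5′ TSS of PLG, at 160702194, was farther away. The GC content of this highest region was 39.2%, and over its full length it held 2 AP-1 matches. The TSS region of the noncoding RNA ENSG00000231863 followed, with 132 and 127. Toward MAP3K4, the region chr6:160979201-160979901 had heights of 54 and 86, the largest spread of the 45 (SD 22.6, n = 2). Within MAP3K4, the promoter peak was followed by a region with heights of 89 and 83, 1.12 kb from the TSS, and by 2 weaker ones with heights of 29 and 30 and of 15 and 18.

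Most of the open TSSs of the neighborhood were those of noncoding RNAs. The neighborhood had 25 annotated genes, of which 10 had a TSS peak in both replicates, compared with 45.7% of all annotated genes. These were IGF2R and MAP3K4 and 8 of the 11 long noncoding RNAs, and none of the 7 pseudogenes. The share over all long noncoding RNAs was not computed, so the 8 of 11 cannot be called particular to the neighborhood. The 8 were AIRN, ENSG00000287656, LPAL2, ENSG00000287558, ENSG00000224371, ENSG00000233342, ENSG00000231863 and MAP3K4-AS1. ENSG00000224371 and ENSG00000233342 had the same peak as their highest TSS peak, the lowest of these, with heights of 21 and 35. A further shared region at another TSS of ENSG00000224371, chr6:160918350-160918574, had heights of 17 and 28. MAP3K4-AS1 shared its peak with MAP3K4. ENSG00000230234, ENSG00000224477 and ENSG00000292246 had none.

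The longest stretches without a peak of either replicate covered the transporters and LPA. The longest, chr6:160160754-160262365, was 101.6 kb and held most of SLC22A2 with its RefSeq TSS. It ranked 2318th of 278811 such stretches in the genome and 160th of 15044 on chromosome 6. The second, chr6:160578811-160667821, was 89.0 kb and held the TSS of LPA, and 37.5% of its words of 100 bases had an exact copy elsewhere. The third, chr6:160306521-160386877, was 80.4 kb and held the TSS of SLC22A3, with 0.0897% of words repeated. The fourth was 63.5 kb, over LPAL2, and the fifth was 62.8 kb and held the most 5′ TSS of PLG. Stretches of 57.7 kb in LPA, of 55.8 kb between PLG and MAP3K4 and of 53.6 kb at the end of MAP3K4 completed the 8 of at least 50 kb.

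These 8 stretches held 48.7% of the neighborhood. In comparison, stretches of at least 50 kb held 34.7% of the known bases of chromosome 6 and 29.9% of those of the genome. By number they were 12.7% of the 63 stretches of the neighborhood and 3.50% of all stretches. The median stretch was 8.72 kb long in the neighborhood and 3.004 kb in the genome. None of the 8 was extreme in the genome, where the longest stretch was 1353 kb.

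The length of the longest stretch depended on 2 weak peaks seen in replicate 2 only. In replicate 1 alone it ran on to chr6:160297386 and was 136.6 kb, over the whole of SLC22A2, since the replicate 2 peaks of height 20 at chr6:160262366-160262526 and of height 28 at chr6:160293912-160294146 had no counterpart there. In replicate 2 alone it was 101.6 kb. The stretches that held the TSSs of LPA and SLC22A3 were 89.2 kb and 80.4 kb in replicate 1 and 89.0 kb and 80.4 kb in replicate 2.

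**Figure D4:**
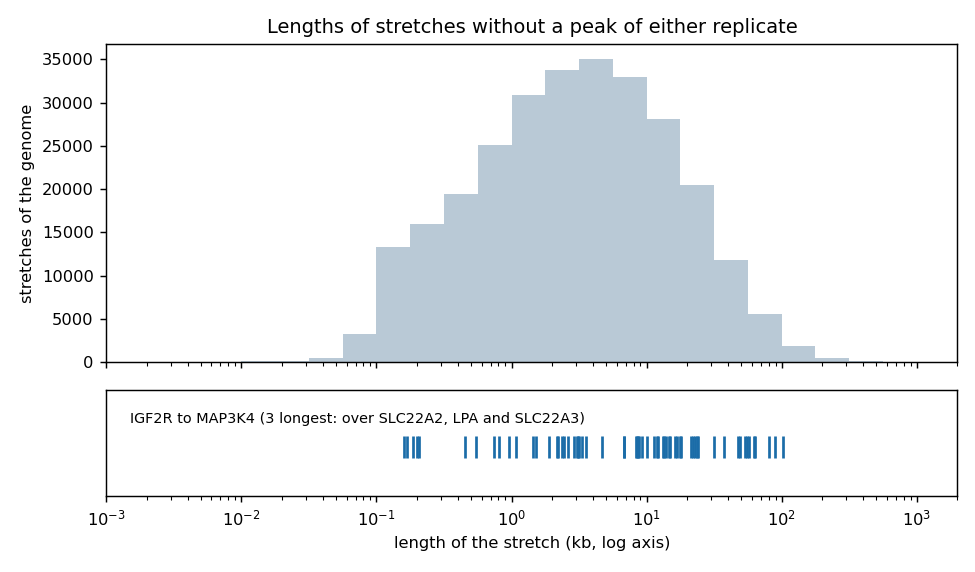
Number of stretches without a peak of either replicate in the genome by length (kb, log axis), above the 63 stretches from IGF2R to MAP3K4, each a vertical mark. The 3 longest marks are the stretches of 101.6, 89.0 and 80.4 kb over SLC22A2, LPA and SLC22A3.

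Short sequence patterns were counted in the 201 bases around the middle of each shared region, on both strands. TGANTCA, the AP-1 site, was present in 8 of the 45 regions (17.8%), compared with 10.2% of all 215195 shared regions. GCCNNNGGC, the AP-2 site, was in 5 (11.1%, compared with 11.7%), and TGTTTAC, the site of forkhead factors such as FOXA1, was in 2 (4.44%, compared with 5.63%). AGATAAG for GATA factors, CCGGAAG for ETS factors and the CTCF site were in 1 region each, compared with 2.37%, 1.58% and 2.38% of all. CAAAGTCCA, a site of the liver factor HNF4, was in none, compared with 0.268% of all. Strict patterns of the estrogen response element and of HNF1 were in none, and under 0.1% of all regions held either. With 45 regions, 1 region more or less is 2.22% of them.

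The genes of each member's family or pathway, the members included, were examined in the same way. The lists were chosen with earlier results of these data known. Of the SLC22 transporters of organic ions, 13 of 21 had a TSS peak in both replicates (61.9%), or 13 of 19 without the members. The share over all protein-coding genes was 79.3%. These 13 were 6 of the 7 CpG-rich and 7 of the 14 CpG-poor genes. The CpG-rich one without was SLC22A3. SLC22A2, SLC22A6, SLC22A9, SLC22A10 and SLC22A12 also lacked one. The highest were those of SLC22A5, the carnitine transporter OCTN2 (781 and 882), SLC22A23 (444 and 469) and SLC22A4 (392 and 442). All of the 8 without a peak in both replicates had no peak in either. At the most 5′ TSS alone, 89.3% of CpG-rich and 47.5% of CpG-poor protein-coding genes had a peak in both replicates. Nothing particular to the family is read from its counts.

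Of the plasminogen system, 7 of 12 genes had a TSS peak in both replicates (58.3%), or 7 of 10 without the members, compared with 79.3% of all protein-coding genes. These 7 were 2 of the 2 CpG-rich and 5 of the 10 CpG-poor genes. With mostly CpG-poor genes in the list, nothing particular to the system is read from the count. LPA, SERPINF2, the plasmin inhibitor, and CPB2 had none. PLG and PLAU, the urokinase activator, had one in replicate 1 only, with heights of 25 and 19. The highest were ANXA2 (901 and 934), PLGRKT (514 and 555) and S100A10 (456 and 397), which encode proteins that hold plasminogen at the cell surface. Of 17 plasma proteins secreted by the liver, 8 had a TSS peak in both replicates (47.1%) and 9 had none. All 17 were CpG-poor. Of CpG-poor protein-coding genes, 47.5% had a peak at the most 5′ TSS, a stricter measure than a peak at any TSS. The share at any TSS was not computed for CpG-poor genes, so nothing particular to liver genes is read from the count. Those with a peak included APOA1 (357 and 354), HPX (180 and 173), SERPINC1 (181 and 159), F2 (150 and 149), AMBP (103 and 94), FGG (67 and 68), APOB (40 and 40) and C9 (24 and 24).

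The lists of the open members were open throughout. Of 12 genes of mannose 6-phosphate sorting and IGF2 binding, all had a TSS peak in both replicates, with the highest, by the mean of both replicates, at GGA1 (311 and 354), GNPTAB, which makes the mannose 6-phosphate tag (297 and 318), and GGA3 (259 and 285). M6PR, the smaller mannose 6-phosphate receptor, had heights of 245 and 273, above the 74 and 79 of IGF2R. All 25 genes of the MAP3K family with the partners of MAP3K4 also had one, with the highest by the same mean at MAP3K3 (773 and 768), MAP3K11 (705 and 683) and GADD45A, an activator of MAP3K4 (646 and 628). In replicate 2 alone, MAP3K12 (663) and MAP3K9 (656) stood above GADD45A. Set beside 79.3% of all protein-coding genes, these lists describe the members with their relatives and carry no test. Most of their genes were CpG-rich, 9 of the 12 and 21 of the 25. Of CpG-rich protein-coding genes, 89.3% had a peak at the most 5′ TSS alone.

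**Figure D5:**
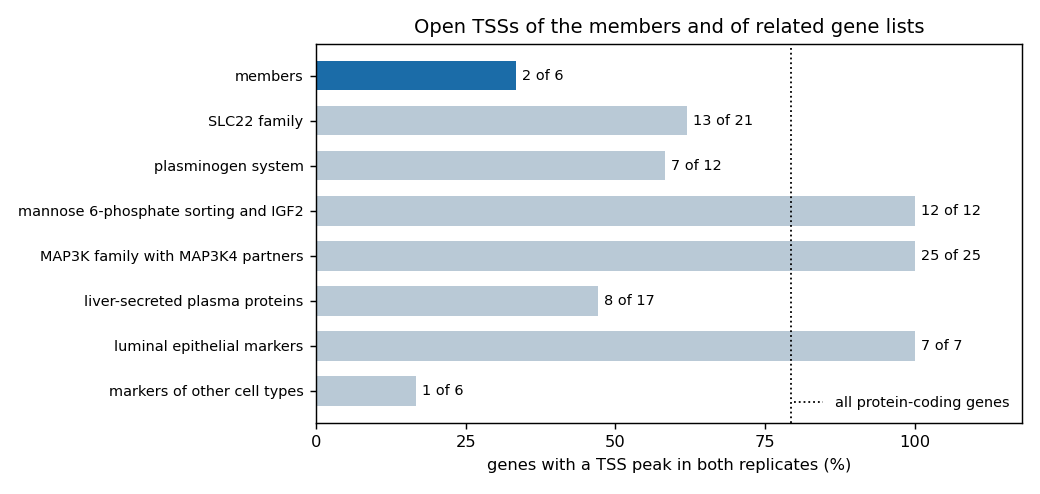
Percentage of genes that had a TSS peak in each of the replicates, among the members (dark bar) and in each list (light bars), with the number of genes beside the bar. The dotted line is the 79.3% of all protein-coding genes; the members (2 of 6) lie below it, and the lists of the IGF2R and MAP3K4 pathways (12 of 12 and 25 of 25) lie above it.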

How the data were processed

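ATAC-seq libraries of 2 replicates of CAMA-1 were analysed. Per the submitters' processing notes, the authors used Trim Galore 0.6.5, Bowtie2 2.3.5.1 and MACS2 2.2.6 with hg38, and peaks were called in each replicate. The treatment of reads with several matches and of duplicates is not given in the sources used here. For each peak the authors deposited 4 values: a score, the fold enrichment as a ratio to the background, and the p-value and q-value, both as −log10. The score repeated the q-value (10 times its −log10, cut to whole numbers) and was left unused.

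Heights were computed from the deposited fold enrichment as (height + 1) / (background + 1), and a Poisson distribution returned the deposited p-values within 0.01 on the −log10 scale. Peaks were merged where they shared at least 1 bp. TSSs and genes came from GENCODE release 44. Words of 100 bases were compared over chromosomes 1 to 22, X and Y on both strands. Stretches with unknown bases were left out. CpG content was taken within 500 bp of the most 5′ TSS. Distances of regions to a TSS were taken from the middle of the region. Scripts were tested on simulated data and used Python 3.11.15, numpy 2.4.6, scipy 1.17.1, pysam 0.24.0 and matplotlib 3.10.9.

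With a single condition no test was run. The genes named are the members, the annotated genes of the neighborhood and, of each list, those with or without a TSS peak, whichever were fewer (up to 6), and the 3 with the highest TSS peaks (by mean height). M6PR, MAP3K9 and MAP3K12 were added after their values were seen. A marker gene and a neighboring gene are not reported here. Members and lists were chosen with earlier results of these data known. Alternatives were other TSS distances (100 bp and 3 kb), the most 5′ TSS only, peaks with −log10 q of 10 or more, the 50000 strongest peaks, a reciprocal overlap of 50%, stretches ended only by shared regions, 100 kb added on each side, and the omission of each replicate.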

Additional observations from a re-analysis of the deposited data

How the results depend on the processing

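The number of members with a TSS peak in both replicates was 2 under 5 of its 7 alternatives and 3 within 3 kb of a TSS and in replicate 1 alone, with PLG added in both cases. The number of shared regions was 45 and fell to 4 when each list was kept to its 50000 strongest peaks. The longest stretch without a peak was 101.6 kb. It was 146.9 kb for peaks with −log10 q of 10 or more, 788.8 kb with the 50000 strongest peaks, 136.6 kb with a reciprocal overlap of 50%, 136.6 kb where only shared regions ended a stretch, and 101.6 to 136.6 kb when each replicate was left out. Each of these alternatives removes peaks, and so joins stretches. The share of bases under peaks, 1.62%, was 1.34% for peaks with −log10 q of 10 or more, 0.324% with the 50000 strongest peaks and 1.32% with a reciprocal overlap of 50%. The distance from the amplicon to the nearest peak stayed between 10.04 and 10.05 kb. In all, 20 of the 29 alternatives left the value within its spread between replicates, or, for counts, within 1.5 times. Leaving out a replicate could not move a mean of both replicates beyond their spread, so those settings carry no information. With a replicate left out, the number of regions was the number of peaks in the other list. No paired analysis was possible because the samples form a single group.

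The heights are those of the peak caller, and sites below its threshold are not listed. The lists have no summits, input control or copy number, so that the number of copies of the neighborhood in CAMA-1 was not analysed here. Reads from the repeated exons of LPA could not be placed by their letters alone. With 2 replicates, the spread rests on 1 difference per value.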
